A study of Mus musculus with 3 samples.

Results

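The transcription factor p53 and 9 of its best known target genes were followed over 3 related mouse cell lines, the parental colon adenocarcinoma line Colon26 and the sublines LuM1 and NM11 derived from it. The genes were chosen by name, as those whose probes carry a RefSeq accession of *Trp53*, *Cdkn1a*, *Mdm2*, *Trp53inp1*, *Ccng1*, *Bbc3*, *Bax*, *Sesn1*, *Phlda3* or *Zmat3*. They are 10 of the 22911 genes that could be named on the array, and 14 of its 32994 named probes. All 10 genes, and all 14 probes, were well above background on every array, so none of their ratios is a bound. Per the labels, all lines come from female BALB/c mice, LuM1 is a high-metastatic subline and NM11 a low-metastatic one. Cells were kept for 3 days in RPMI1640 with serum, and 0.1 µg of their total RNA was labelled and hybridized to 1 array per line.

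p53 is a transcription factor that is kept scarce in unstressed cells by Mdm2, a ubiquitin ligase that is itself a p53 target. After DNA damage or oncogene activity p53 is stabilized and raises the transcription of genes that stop the cell cycle, promote apoptosis, limit growth signals or handle stress. Because p53 is controlled largely at the level of the protein, the level of its mRNA does not tell its activity.

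Each line has 1 array, so differences lack a replicate check and nothing was tested. Signals are scanner intensities, brought on every array to a 75th percentile of 585.1. They are given with the error that the scanner software assigned, which is about 10% of the signal and describes technical error only. For a log2 ratio between a pair of arrays this error was 0.20 to 0.21, and a ratio is called beyond the error where it exceeds that value. Scaling moves every ratio of a pair of arrays by one amount. Over all genes, the median ratio between the LuM1 and Colon26 arrays was 0.45 (log2) higher in the authors' processed values than in the values given here. Scaling by *Hprt* or by E1A, a spike-in RNA, moved the median of NM11 over Colon26 by -0.49 or -0.33. The share of genes with a lower ratio, given below as a rank over the 12249 measurable genes (those well above background on every array), does not depend on these factors. RNA was taken from whole cultures, so a change in the share of some cells and a change in the RNA per cell cannot be told apart. Of 10 colon epithelium markers, 3 were well above background in Colon26 and NM11 cells and 4 in LuM1 cells, and *Cdh1*, *Krt18*, *Krt19* and *Vil1* were so on no array. Of 6 mesenchymal markers, 5 were well above background in Colon26 cells and 6 in each subline. Their summed signal was 168168 in Colon26, 106852 in LuM1 and 207340 in NM11 cells, most of it from *Vim* and, outside LuM1, *Col1a2*. In LuM1 cells *Col1a2* read 49.6 ± 6.89 against 59896 ± 5990 in Colon26, whereas *Pdgfra* was 18.2-fold and *Thy1* at least 741-fold higher. The myeloid marker *Cd68* read 172 ± 18.1 in Colon26, 5251 ± 525 in LuM1 and 299 ± 30.2 in NM11 cells, while the leukocyte markers *Ptprc* and *Adgre1* were not well above background on any array. These markers were named after their values were seen. The part of cell identity in the results was not tested.

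Promoters are shown because p53 acts on its target genes by binding response elements in DNA, often near the start site. A p53 response element is made of 2 copies of a 10-base half-site, set side by side or a short distance apart. The 250 bases before each start site in RefSeq (GRCm38.p6) were searched on both strands for the p53 half-site consensus, which reads the same on either strand. Windows of 8 of the 10 genes were searched, all but *Trp53inp1* and *Zmat3*. A half-site matched in 6 of the 8 genes, *Trp53*, *Cdkn1a*, *Mdm2*, *Ccng1*, *Bax* and *Sesn1*. Among all 27025 genes with a window, 8.20% held one. A pair with at most 1 mismatch over its 20 positions and a gap of at most 13 bases lay in 3 of them, *Cdkn1a*, *Ccng1* and *Bax*, against 1.02% of all genes. Response elements can also lie outside these 250 bases, and a match is a run of letters, not a bound site. Below, capitals mark, in each window with such a pair, the half-sites of the pair with the fewest mismatches. The window of *Phlda3*, in which no half-site matched, is set beside these windows. The windows run 5′ to 3′ on the strand of the gene. That of *Cdkn1a* is chr17:29090729-29090978 (plus strand), that of *Ccng1* is chr11:40755287-40755536 (minus strand), that of *Bax* is chr7:45466899-45467148 (minus strand) and that of *Phlda3* is chr1:135765835-135766084 (plus strand).
Cdkn1a: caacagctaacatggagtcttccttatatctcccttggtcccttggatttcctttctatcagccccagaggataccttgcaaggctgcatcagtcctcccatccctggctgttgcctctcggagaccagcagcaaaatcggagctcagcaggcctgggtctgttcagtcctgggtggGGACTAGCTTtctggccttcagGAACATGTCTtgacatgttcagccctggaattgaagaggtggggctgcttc
Ccng1: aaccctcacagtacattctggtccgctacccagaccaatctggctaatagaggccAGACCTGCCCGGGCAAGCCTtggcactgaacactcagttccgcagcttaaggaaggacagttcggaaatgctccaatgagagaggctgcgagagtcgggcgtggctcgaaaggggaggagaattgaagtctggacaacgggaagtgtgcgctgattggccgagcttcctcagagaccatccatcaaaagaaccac
Bax: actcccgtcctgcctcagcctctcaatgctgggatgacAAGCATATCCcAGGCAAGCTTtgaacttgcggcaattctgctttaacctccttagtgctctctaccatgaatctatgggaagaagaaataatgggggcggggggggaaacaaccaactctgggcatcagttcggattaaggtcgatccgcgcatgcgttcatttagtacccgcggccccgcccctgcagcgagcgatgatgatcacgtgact
Phlda3: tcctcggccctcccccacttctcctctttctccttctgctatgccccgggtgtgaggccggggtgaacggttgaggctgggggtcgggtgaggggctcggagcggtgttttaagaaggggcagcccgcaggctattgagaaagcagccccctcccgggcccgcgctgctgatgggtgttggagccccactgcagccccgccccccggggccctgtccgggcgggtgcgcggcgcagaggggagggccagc
In *Cdkn1a* both half-sites matched without a mismatch, with 12 bases between them, and the first began 73 bases before the start. The 10 bases directly after the second half-site differ from the consensus at 1 position. They form a further pair with it that meets the same limits and is left in lower case. The window of the other start site of *Cdkn1a* held no half-site. In *Ccng1* the half-sites adjoined 195 bases before the start, and in *Bax* they lay 1 base apart, 212 bases before it, each with 1 mismatch. *Ccng1*, which holds such a pair, and *Phlda3*, which does not, had the lowest ratios of LuM1 over Colon26 among the 10 genes, as described further on.

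The mRNA of p53 itself was intermediate in the parental line. *Trp53* (probe A_52_P491849, NM_011640) gave a signal of 1482 ± 148 in Colon26 cells, 1106 ± 111 in LuM1 cells and 1810 ± 181 in NM11 cells. LuM1 was the lowest and NM11 the highest line. The log2 ratio was -0.42 for LuM1 over Colon26 and 0.29 for NM11 over Colon26, both beyond the error of 0.20. Of all genes, 32.0% had a lower ratio than *Trp53* for LuM1 over Colon26 and 74.0% for NM11 over Colon26. Both signs depended on the scaling: the ratio of LuM1 over Colon26 was 0.02 in the authors' processed values, and that of NM11 over Colon26 was -0.20 when scaled to *Hprt* and -0.04 when scaled to the E1A controls. The ratio of LuM1 over NM11, -0.71, stayed below 0 in all alternatives that were run, between -0.73 and -0.12.

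Among 68 measurable genes of the pathway lists described below, the ratios nearest to those of *Trp53* belonged to *Gtse1*, *Gadd45a* and *Bub1b*. Their distances over the pair of log2 ratios against Colon26 were 0.037, 0.055 and 0.099. *Gtse1*, whose product binds p53 and moves it out of the nucleus, gave -0.45 in LuM1 and 0.27 in NM11 cells over Colon26. Among all 12249 genes, 8 lay as close as *Gtse1*, 33 as close as *Gadd45a* and 127 as close as *Bub1b*. The likeness is a description over 3 arrays.

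*Mdm2*, the ubiquitin ligase that marks p53 for degradation, was highest in NM11 cells, though not above LuM1 when scaled to *Hprt*. Its brighter probe (A_55_P1975475, NM_001288586) read 8146 ± 815 in Colon26, 8023 ± 802 in LuM1 and 11682 ± 1168 in NM11 cells. The Colon26 and LuM1 lines did not differ beyond the error, with a log2 ratio of -0.02 whose sign changed in 7 alternatives. The level in NM11 cells was above that in Colon26 cells by a log2 ratio of 0.52. That ratio shrank to 0.03 when scaled to *Hprt* and to 0.19 when scaled to the E1A controls, within the error. The dim second probe (A_55_P2606086) read 199, 261 and 299, with log2 ratios of 0.39 for LuM1 and 0.59 for NM11 over Colon26. Both probes put NM11 above Colon26, and they differed on whether LuM1 was above it too.

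*Cdkn1a* and *Ccng1*, which act on the cell cycle, were highest in the parental line, except that *Cdkn1a* was not so in the authors' processed values. *Cdkn1a*, which encodes p21, the inhibitor of cyclin-dependent kinases that carries p53-dependent arrest, was read by a bright probe (A_51_P363947, NM_007669) at 5435 ± 544 in Colon26, 4204 ± 420 in LuM1 and 3814 ± 381 in NM11 cells. Both sublines were below Colon26, with log2 ratios of -0.37 and -0.51, and did not differ from each other beyond the error (0.14). Its second probe (A_55_P1986282, NM_001111099) gave log2 ratios of -0.37 and -0.35. With the authors' processed values the ratio for LuM1 turned to 0.08, and that of NM11 over Colon26 was below 0 in all alternatives that were run.

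*Ccng1*, which encodes cyclin G1, a p53 target that recruits a phosphatase to Mdm2, had the lowest ratio of the 10 genes in both sublines. Its probe (A_52_P612803, NM_009831) read 3854 ± 385 in Colon26, 1164 ± 116 in LuM1 and 2250 ± 225 in NM11 cells. The lines were ordered Colon26, NM11, LuM1, with each neighbour beyond the error. In LuM1 cells the level was 3.31-fold lower than the parental one (log2 ratio -1.73), and 2.51% of all genes had a lower ratio. It was also lower in NM11 cells, with a log2 ratio of -0.78. The ratio of LuM1 over Colon26 lay between -1.75 and -1.28 under the alternatives, past 2-fold in all of them.

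Among the targets that promote apoptosis, *Bbc3* and *Bax* were lower in both sublines, except that *Bax* in LuM1 was not so in the authors' processed values. *Bbc3*, which encodes Puma, a BH3-only protein that sets Bax and Bak free, read 3054 ± 305 in Colon26, 1998 ± 200 in LuM1 and 2444 ± 244 in NM11 cells (A_51_P248122, NM_133234). Its log2 ratio was -0.61 in LuM1 and -0.32 in NM11 cells over Colon26, below 0 in all alternatives for both. That of LuM1 shrank to -0.17 in the authors' processed values, within the error. *Bax*, which encodes the pore-forming executioner of the mitochondrial pathway, was read at 14764 ± 1476 in Colon26, 11406 ± 1141 in LuM1 and 12320 ± 1232 in NM11 cells by its brighter probe (A_55_P2137406, NM_007527). The sublines lay below Colon26 by log2 ratios of -0.37 and -0.26, close to the error, and did not differ from each other beyond it. The second probe (A_51_P254541) gave -0.37 and -0.21. The ratio of LuM1 over Colon26 was 0.07 in the authors' processed values.

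*Phlda3*, a target that holds back Akt by competing for membrane lipids, followed the order of *Ccng1*. Its probe (A_51_P329928, NM_013750) read 26472 ± 2647 in Colon26, 10135 ± 1014 in LuM1 and 16639 ± 1664 in NM11 cells. In LuM1 cells it was 2.61-fold lower than in the parental line (log2 ratio -1.39), with 4.42% of all genes lower. In NM11 cells the log2 ratio over Colon26 reached -0.67. In the authors' processed values the ratio of LuM1 over Colon26 was -0.94, just under 2-fold. The ratio of LuM1 over NM11, -0.72, shrank to as little as -0.13 under the alternatives, within the error.

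*Trp53inp1*, whose product helps p53 to activate apoptosis genes and takes part in autophagy, went the other way. Its brighter probe (A_51_P175580, NM_021897) read 278 ± 28.4 in Colon26, 593 ± 59.5 in LuM1 and 452 ± 45.4 in NM11 cells. In LuM1 cells it was 2.14-fold higher than in the parental line, and 91.7% of all genes had a lower ratio. NM11 cells were above Colon26 cells by a log2 ratio of 0.70 and below LuM1 cells by 0.39. The second, dimmer probe (A_55_P1973906) gave 0.95 and 0.90, and the normexp background correction gave 0.94 for LuM1, under 2-fold. The direction was the same in all alternatives that were run.

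The stress and growth targets *Sesn1* and *Zmat3* differed from each other. *Sesn1*, which encodes sestrin 1, a restraint on mTORC1 signalling, read 322 ± 32.6 in Colon26, 484 ± 48.6 in LuM1 and 353 ± 35.6 in NM11 cells (A_51_P233954, NM_001013370). LuM1 was above Colon26 by a log2 ratio of 0.59 and above NM11 by 0.45, and the Colon26 and NM11 lines did not differ beyond the error (0.13). Scaled to *Hprt* or the E1A controls, NM11 turned to -0.35 or -0.19 over Colon26, and in the authors' processed values LuM1 over Colon26 reached 1.04, past 2-fold. *Zmat3*, an RNA-binding zinc finger protein, read 2603 ± 260 in Colon26, 1454 ± 146 in LuM1 and 4149 ± 415 in NM11 cells (A_51_P415220, NM_009517). NM11 was the highest line and LuM1 the lowest, with log2 ratios over Colon26 of 0.67 and -0.84. Between the sublines the level in LuM1 was 2.85-fold lower, a log2 ratio of -1.51, the lowest of the 10 genes in that comparison, and 2.51% of all genes were lower. Both directions against Colon26 held under all alternatives that were run, though NM11 over Colon26 fell to as little as 0.18, within the error.

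**Figure D1:**
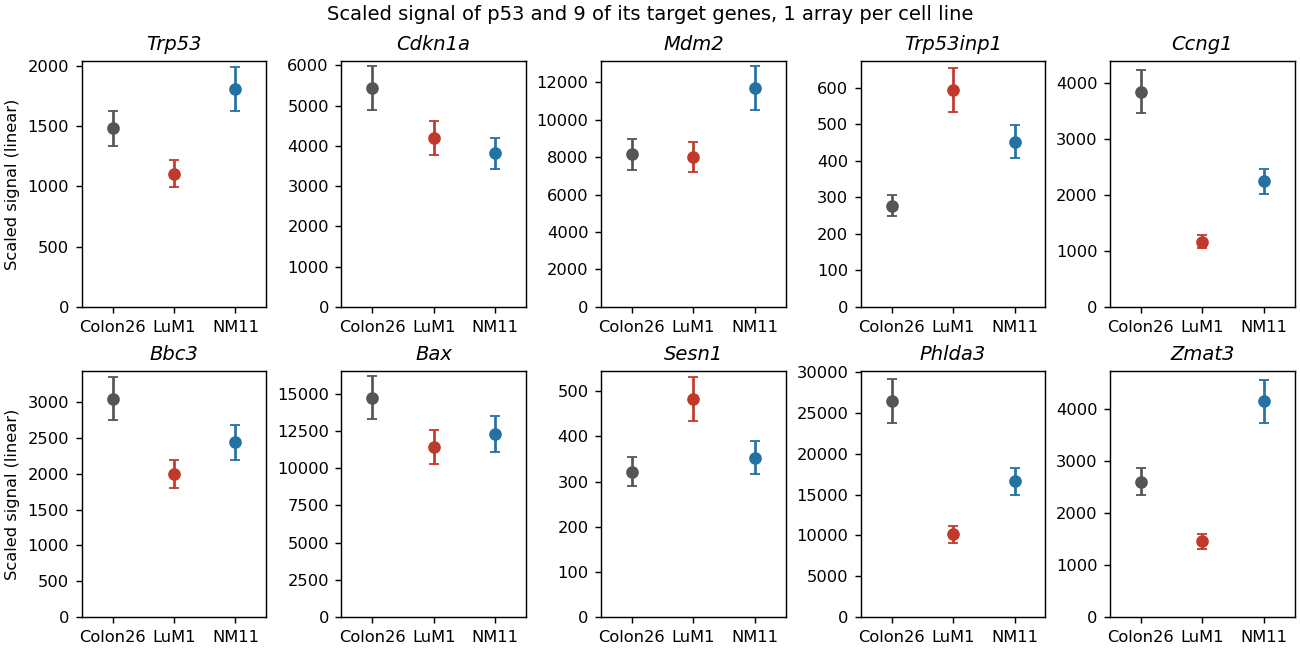
Scaled signal (linear axis from 0, its own range in each panel) of each gene's brightest probe in Colon26, LuM1 and NM11 cells, 1 array per line, with the scanner software's error as bars. *Ccng1* and *Phlda3* fall from Colon26 over NM11 to LuM1, *Trp53inp1* lies higher in both sublines, and *Zmat3* and, at this scaling, *Trp53* are lowest in LuM1 and highest in NM11 cells.

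Over the 10 genes, LuM1 was lower than Colon26 for 8 and higher for 2, with 7 lower and 2 higher beyond the error. The genes of lower ratio outnumbered the others among all genes as well, of which 58.5% were lower. The median log2 ratio was -0.40, against -0.13 for all 12249 genes, and the values spanned 2.82 from *Ccng1* to *Trp53inp1*. At least 2-fold lower were 2 of 10, *Ccng1* and *Phlda3*, where 9.61% of all genes were so, and at least 2-fold higher was 1, *Trp53inp1*, where 9.49% were. Bright genes had lower ratios in general: for LuM1 over Colon26 the median was -0.31 for genes with a mean signal of 10000 or more, -0.21 from 1000 up to that and 0.0036 from 100 to 1000. *Bax* and *Phlda3* are in the brightest class and *Trp53inp1* and *Sesn1* in that from 100 to 1000. The part of signal strength in the ratios was not tested. In the authors' processed values 4 of the 10 were lower and 6 higher in LuM1, with a median of 0.05 against 0.31 for all genes.

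NM11 cells, compared with the same Colon26 array, were lower for 5 genes and higher for 5, where 51.7% of all genes were lower. The median of the 10 genes was -0.06 against -0.02 for all genes. The values spanned 1.48, from *Ccng1* to *Trp53inp1* again, and no member was 2-fold apart in either direction, where 5.05% of all genes were at least 2-fold lower and 6.18% higher. Scaled to *Hprt*, 7 were lower and *Ccng1* and *Phlda3* passed 2-fold, and scaled to the E1A controls *Ccng1* did. The medians of the 10 genes were then -0.55 and -0.39, against -0.51 and -0.35 for all genes. The comparisons of LuM1 and NM11 share the Colon26 array, so their values are given side by side and not set against each other as a result.

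Between the sublines, LuM1 was lower than NM11 for 7 genes and higher for 3, where 58.1% of all genes were lower. The median was -0.42 against -0.12 for all genes. *Zmat3* alone was 2-fold apart, in LuM1 lower, where 7.05% of all genes were at least 2-fold lower and 7.28% higher. *Trp53*, *Mdm2*, *Ccng1*, *Phlda3* and *Zmat3* were lower in LuM1 by log2 ratios of 0.54 to 1.51 in size, except that *Mdm2* turned to 0.05 when scaled to *Hprt*. Under the alternatives *Trp53* and *Phlda3* shrank to as little as -0.12 and -0.13, within the error, and *Ccng1* to -0.36. The split depended on the scaling, with 4 lower and 6 higher when scaled to *Hprt*, where *Sesn1* passed 2-fold and *Zmat3*, at -0.92, no longer did. The median was 0.17 there, against 0.47 for all genes.

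**Figure D2:**
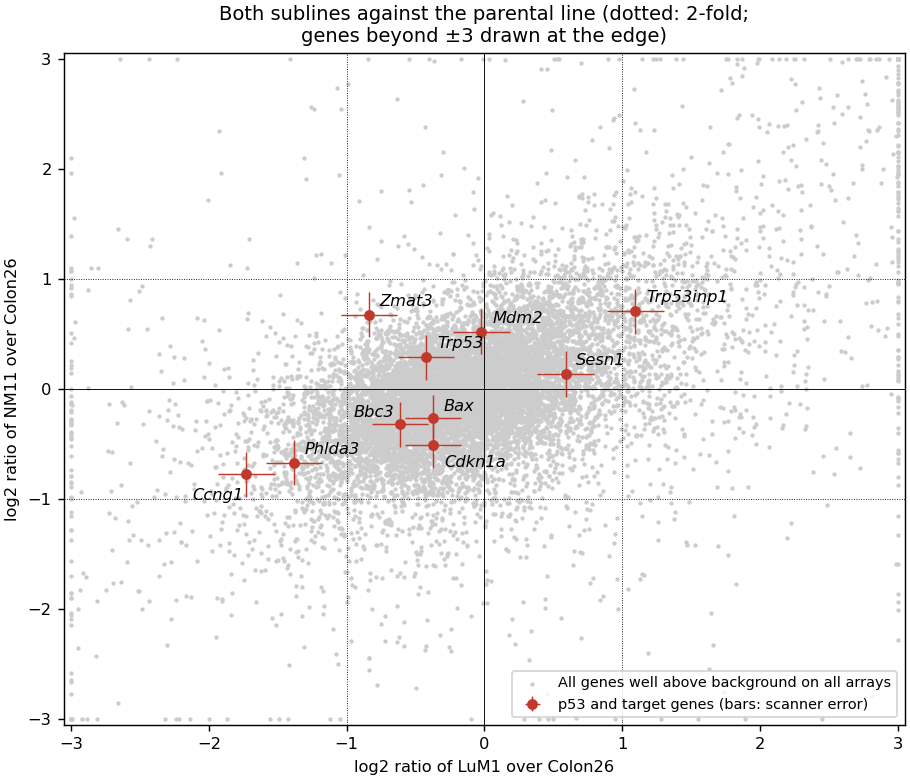
Log2 ratio of LuM1 over Colon26 (horizontal axis) and of NM11 over Colon26 (vertical axis) for the 10 genes (red, with the scanner error as bars) and for the 12249 measurable genes (grey). Both axes use the same Colon26 array, so they are not independent. *Ccng1* and *Phlda3* lie past 2-fold to the left, *Trp53inp1* past 2-fold to the right, and *Zmat3* and *Trp53* in the upper left.

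**Figure D3:**
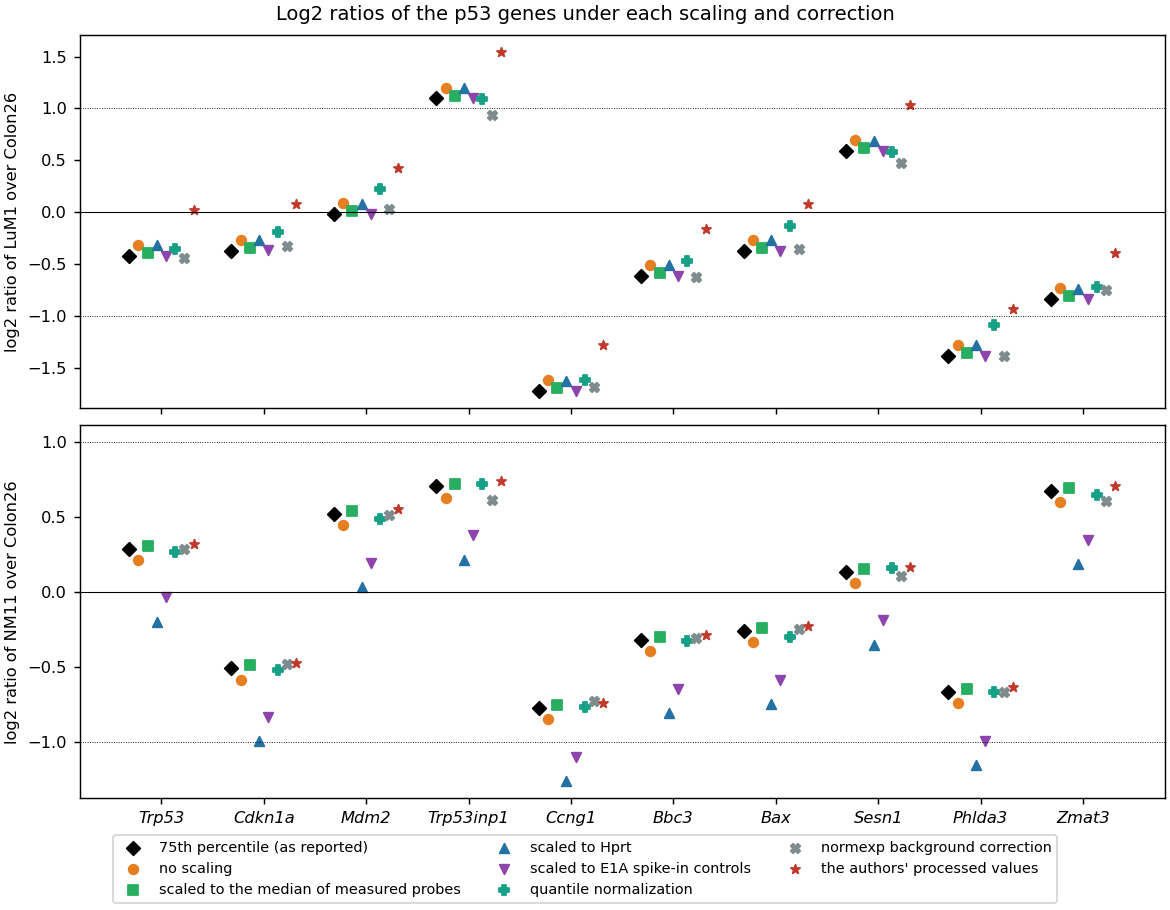
Log2 ratio of each gene for LuM1 over Colon26 (upper panel) and NM11 over Colon26 (lower panel) under each way of scaling or correcting the arrays, marked by symbol. A change of scaling shifts all genes together, by most in the authors' processed values for LuM1 and in the scaling to *Hprt* for NM11, and a constant factor per array leaves the order of the genes as it was.

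Genes that control p53 were read from a list of 19 (ubiquitin ligases, kinases, acetylases and relatives of p53). Of these, 18 were well above background on every array. *Cdkn2a*, whose locus encodes the p19Arf inhibitor of Mdm2, was not well above background on any array with either of its probes, and it is named here because of that, after its values were seen. For LuM1 over Colon26, 1 gene was at least 2-fold lower and none higher, where 11.7% and 12.9% were among genes well above background on at least one of the arrays. That gene was *Trim24*, a ubiquitin ligase for p53, which read 1730 ± 173 in Colon26, 521 ± 52.3 in LuM1 and 696 ± 69.7 in NM11 cells. Its log2 ratios over Colon26 were -1.73 and -1.31, and its second probe gave -1.25 for LuM1 and was not well above background in NM11 cells. In NM11 cells 2 genes were 2-fold lower, against 7.74% of all, *Trim24* and *Hipk2*, a kinase that phosphorylates p53, with a log2 ratio of -1.02. *Hipk2* was also lower in LuM1 cells, by a log2 ratio of -0.94 over Colon26, just under 2-fold. With this probe the sublines did not differ beyond the error (0.08). The next brightest probe of *Hipk2* gave -1.78 for LuM1 and was past 2-fold lower in NM11 cells too. The list's median log2 ratio was -0.41 in LuM1 cells over Colon26, though 0.03 in the authors' processed values. It was 0.03 in NM11 cells over Colon26, though -0.46 when scaled to *Hprt*. The medians over all measurable genes were -0.13, 0.31, -0.02 and -0.51 in the same order.

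The list of 40 further p53 targets spread more widely. Of 38 genes with a level or bound, 8 lay at least 2-fold above Colon26 in LuM1 cells and 11 below, and in NM11 cells 6 of 37 were higher and 1 lower. With the authors' processed values 9 were higher and 5 lower in LuM1 cells, and when scaled to *Hprt* 4 were higher and 7 lower in NM11 cells. At the scaling used for the values given here, 12.9% of all genes were higher and 11.7% lower in LuM1 cells. For NM11 cells these shares were 8.17% and 7.74%. They do not apply to the counts in the authors' processed values or scaled to *Hprt*, for which no shares of all genes are given. *Fas*, which encodes a death receptor, read 48.1 ± 7.72 in Colon26, 3276 ± 328 in LuM1 and 1381 ± 138 in NM11 cells, 68.1-fold and 28.7-fold higher in the sublines (log2 ratios of 6.09 and 4.84). Its other probe was far dimmer and was well above background in LuM1 cells only. *Tnfrsf26*, a decoy receptor of the same family, read 53.6 ± 8.12, 1688 ± 169 and 1171 ± 117 (log2 ratios of 4.98 and 4.45). *Casp1*, the inflammatory caspase, read 598 ± 60.1, 5799 ± 580 and 11097 ± 1110 (3.28 and 4.21). All 3 were higher in both sublines than in Colon26 cells. The cytokine gene *Lif* (1.83 in LuM1 and 1.45 in NM11) was also past 2-fold in both sublines. The epithelial gene *Sfn* was so in LuM1 only (2.24, against 0.88 in NM11). The highest bound in LuM1 belonged to *Trp53i11*, which is named here after its values were seen. It read 2488 ± 249 in LuM1 cells, at least 94.2-fold above Colon26, and was not well above background on the other arrays.

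The direction turned for *Psrc1*, a spindle protein, with 6117 ± 612 in Colon26, 1027 ± 103 in LuM1 and 3831 ± 383 in NM11 cells and a log2 ratio of -2.57 for LuM1. *Eda2r*, a receptor of the TNF receptor family, read 228 ± 23.5, 47.5 ± 6.52 and 237 ± 24.0 (-2.26 for LuM1). Its dimmest probe of 3 gave 0.80, the opposite sign. *Aen*, a nuclease induced by p53 in apoptosis, had a log2 ratio of -1.53 in LuM1 over Colon26 and differed by less than the error between NM11 and Colon26 cells (0.998-fold). Its 3 probes gave -1.57 to -1.53 for LuM1. The antiproliferative gene *Btg2* had -1.48 in LuM1. *Pmaip1*, which encodes the BH3-only protein Noxa, read 871 ± 87.3 in Colon26 cells and was not well above background in either subline, at least 43.3-fold lower in LuM1 and at least 44.5-fold lower in NM11. Around its spot on the array, 13 of 412 neighbouring spots (3.16%) passed detection on the Colon26 array and on neither other array, against 1.89% of all spots. The median of the list was -0.35 in LuM1 over Colon26, though 0.10 in the authors' processed values. For NM11 over Colon26 it was 0.04, though -0.45 when scaled to *Hprt*. The medians over all measurable genes were -0.13, 0.31, -0.02 and -0.51 in the same order.

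The third list held 15 genes that are repressed downstream of p21 through the DREAM complex and drive division. Against Colon26, 6 were at least 2-fold lower in LuM1 cells and none higher, where 11.7% and 12.9% of all genes were so. Of the 15, 14 lay below 0, where 58.5% of measurable genes did. The proliferation marker *Mki67* was the one above 0, at 0.15, and it is named for that after its values were seen. The lowest were *Mybl2* (log2 ratio of -1.88), *Cdc25c* (-1.44), *Foxm1* (-1.32) and *Ccnb2* (-1.25), a transcription factor, a phosphatase, a transcription factor and a cyclin of division. The median was -0.70, against -0.13 over measurable genes. In NM11 cells none was 2-fold apart. There 11 of 15 lay above Colon26 with a median of 0.24, but 1 of 15 did when scaled to *Hprt* and 4 when scaled to the E1A controls. Of the measurable genes 51.7% lay below Colon26, with a median of -0.02. All 15 were lower in LuM1 than in NM11 cells with a median of -0.95. In the scalings to *Hprt*, to the E1A controls, by quantiles, without scaling and in the authors' values 14 were so. Among measurable genes 58.1% were lower, with a median of -0.12. That median was -0.17 for genes with a mean signal of 1000 to 10000 and -0.35 at 10000 or more. The part of signal strength was not tested. By 2-fold or more 6 of the 15 were lower, where 8.50% of all genes were so, but 2 without scaling or by quantiles. None was when scaled to *Hprt* or the E1A controls or in the authors' processed values. In those values 1 gene of the list was 2-fold lower in LuM1 against Colon26.

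**Figure D4:**
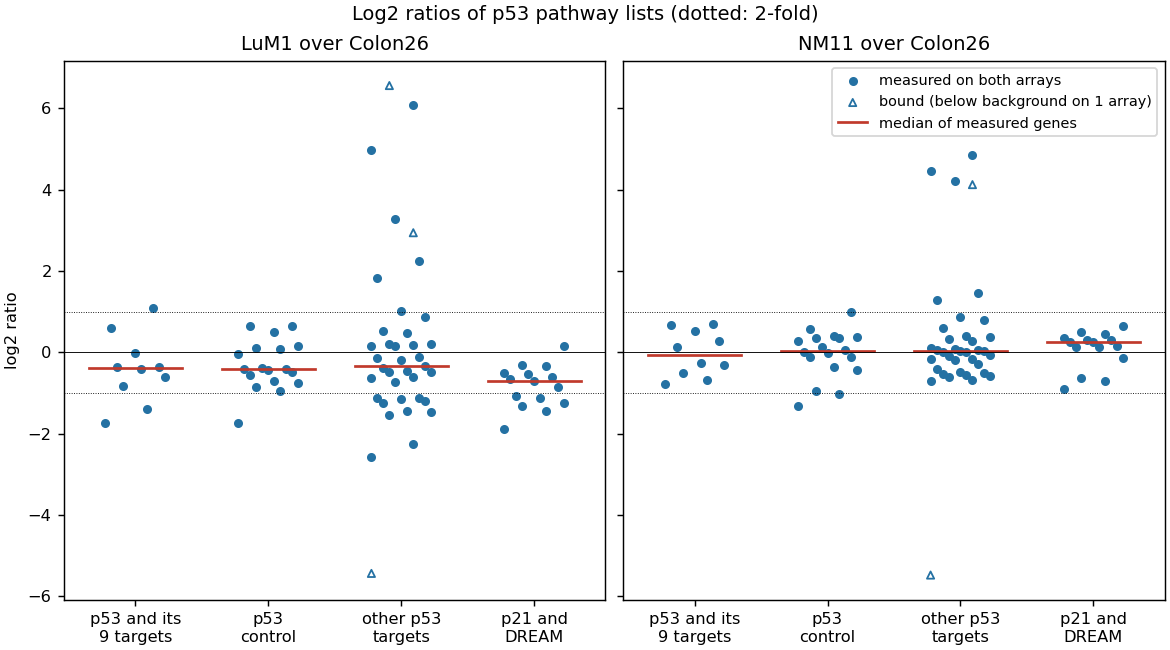
Log2 ratios of LuM1 (left) and NM11 (right) over Colon26 for the 10 genes and for the 3 pathway lists, with filled circles for genes measured on both arrays, open triangles for bounds and red lines for medians of measured genes. The other p53 targets spread widest, with *Fas*, *Tnfrsf26* and *Casp1* the highest measured genes in both panels and *Pmaip1* as a bound at the bottom. In the left panel the bound of *Trp53i11* (6.56) lies above them all. The p21 and DREAM list lies mostly below 0 in LuM1 cells and, unless scaled to *Hprt* or the E1A controls, above 0 in NM11 cells.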

How the data were processed

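Cy3-labelled RNA of 3 cell lines was hybridized to 1 array each. The authors deposited spot intensity values of Feature Extraction 11.5.1.1, background-subtracted and detrended within an array and unscaled between arrays, with 0 or 1 flags for outliers, saturation and detection. Their processed intensity table holds the same intensities multiplied by a constant, 0.654 (Colon26), 0.829 (LuM1) and 0.706 (NM11), with column medians of 22.6, 35.4 and 22.2. The reason for these constants is not given in the sources used here.

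Control spots were dropped, and 137, 74 and 99 outlier spots were kept out of probe means. Arrays were divided by their 75th percentile over all non-control spots (581.1, 625.1 and 551.5) and brought to a common level. RefSeq accessions of GRCm38.p6 named 58.3% of 56605 probes. The array design predates that build, so no probe coordinates are given. The brightest probe stood for its gene. Between 49.9% and 53.8% of probes were well above background per array, and none was saturated. A dim probe gave a bound, taken from whichever was larger, its signal or the dimmest signal that passed detection there (26.4, 20.1 and 19.6). Repeated spots had a median SD of 0.036 to 0.040 (log2). Precision is limited by the number of arrays.

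The genes, lists and markers were chosen with earlier results of these data known. The text names all 10 genes, up to 4 genes in each direction per list and comparison at least 2-fold from Colon26 (bounds after measured ratios), and the 3 list genes nearest to *Trp53*. Lists (p53 control, other p53 targets, p21 and DREAM) are described by counts and medians beside all genes. Of the leukocyte markers 3 to 4 of 6 were well above background, without *Ptprc* and *Adgre1*, and of the endothelial markers 1 of 4, *Pecam1*.

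Other settings tried were unscaled signals, the median of measured probes or *Hprt* as the scale, quantile normalization, normexp (offset 50), the deposited processed table, looser detection, no detection filter, averaged probes, the probe brightest in Colon26 cells, and thresholds of 1.5-fold and 4-fold. An E1A spike-in scale and a 75th percentile without outlier spots were added after seeing the data. That percentile had first been used for the values and was replaced by the one over all spots. List counts were recomputed under all of these but the other thresholds. The changes in list counts given at the end are those under scalings and corrections. Python 3.11.15, numpy 2.4.6, pandas 2.3.3, matplotlib 3.10.9, R 4.3.3 and limma 3.58.1 were used, and the calls were tested on simulated data.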

Additional observations from a re-analysis of the deposited data

Results flagged for a closer look

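*Trp53* and *Zmat3* stood out because LuM1 and NM11 cells lay on opposite sides of Colon26 cells, each beyond the scanner error. The log2 ratios of *Trp53* were -0.42 for LuM1 and 0.29 for NM11, and those of *Zmat3* were -0.84 and 0.67. Each line has 1 array and the difference was not tested. Both ratios share the Colon26 array. For *Zmat3* both signs held in all alternatives that were run, though NM11 fell to as little as 0.18, within the error. For *Trp53* LuM1 turned to 0.02 in the authors' processed values and NM11 to -0.20 and -0.04 when scaled to *Hprt* and to the E1A controls.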

How the results depend on the processing

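With 1 array per line no replicate could be left out, and no paired analysis was possible because each group holds 1 sample. Of 360 log2 ratios of single genes under the alternatives, 293 moved by less than the scanner error and 67 by more. The 293 include ratios that could not move. All 10 genes were well above background on every array, so looser detection and no detection filter left their ratios unchanged. The probe brightest in Colon26 cells was the same probe, and averaging cannot move a gene with 1 probe. No gene at least 2-fold apart changed sign. The median of the 10 genes moved beyond the error for LuM1 over Colon26 in the authors' processed values (0.049). For NM11 over Colon26 it did so when scaled to *Hprt* (-0.55) or the E1A controls (-0.39). For LuM1 over NM11 it did so when scaled to *Hprt* (0.17) or the E1A controls (-0.091), with quantiles (-0.20) and with the authors' values (-0.0034). The medians over all measurable genes were 0.31, -0.51, -0.35, 0.47, 0.21, -0.04 and 0.29 in the same order.

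The number of the 10 genes past the threshold was 6 at 1.5-fold and 0 at 4-fold for LuM1 over Colon26, in place of 3 at 2-fold. For NM11 over Colon26 it was 4 at 1.5-fold, 2 when scaled to *Hprt* and 1 when scaled to the E1A controls, in place of 0. For LuM1 over NM11 it was 4 at 1.5-fold and 0 at 4-fold, in place of 1. For p53 control the count for LuM1 over Colon26 went from 1 to 2 (quantile) and 3 (authors' values), for NM11 over Colon26 from 2 to 1 (quantile, normexp), and for LuM1 over NM11 from 1 to 2 (*Hprt*) and 0 (normexp, authors' values, E1A). For other p53 targets NM11 over Colon26 went from 7 to 11 (*Hprt*). For p21 and DREAM targets LuM1 over Colon26 went from 6 to 1 (authors' values), NM11 over Colon26 from 0 to 3 (*Hprt*) and 2 (E1A), and LuM1 over NM11 from 6 to 2 (no scaling, quantile) and 0 (*Hprt*, authors' values, E1A). Without outlier spots in the percentile no such value moved beyond these limits. Why the scalings differ was not tested. The dim probes of *Fas*, *Eda2r* and *Mybl2* limit what a second probe can add.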
